A study of Arabidopsis thaliana with 18 samples.

Results

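Untreated roots of the brassinosteroid-deficient dwf4 mutant were compared with untreated wild-type roots, using 4 of the 18 libraries of the series, 2 per genotype. A locus entered the comparison when it passed a low-count filter, and 19558 of the 33602 listed loci did. RNA came from 7-day-old Arabidopsis thaliana seedlings grown under continuous light, after the primary root was cut and its tip part kept. Both genotypes are in the Col-0 background, and neither received hormone or mock solution. The labels name no dwf4 allele. They also leave unsaid whether libraries of 1 genotype came from separate cultures, so p-values measure only the spread between these samples. Other libraries enter where a result needs them: dwf4 given 100 nM brassinolide (BL, the most active brassinosteroid) for 4 h, sequenced like the 4 libraries at 36 bp, and, at 101 bp, untreated bri1-116, which carries a mutant allele of the receptor gene BRI1, wild-type Col-0 given mock solution for 4 h, and Col-0 given 100 nM BL for 4 h.

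Brassinosteroids are plant steroid hormones made from campesterol by a chain of reductase and cytochrome P450 steps. DWF4 hydroxylates the steroid side chain and is regarded as a rate-limiting step. The hormone binds BRI1 at the cell surface, the GSK3-like kinase BIN2 is switched off, and the transcription factors BZR1 and BES1 accumulate in the nucleus, where they lower the expression of the hormone's own synthesis genes and alter that of many growth genes. In roots the pathway is known for its part in cell elongation, meristem size and vascular and epidermal patterning, and mutants that lack the hormone are dwarfs with short roots.

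Gene counts were 12802252 and 15647439 in wild type and 12436926 and 11764200 in dwf4. Levels are given as CPM, counts scaled to a library total of 1000000 after TMM correction. A count of 0 allows a level up to that of 3 counts, which was 0.192 to 0.255 CPM in these libraries, counting error alone considered. The dwf4 libraries differed from each other more than the wild-type libraries did, with chi-square values per degree of freedom at 5.75 against 2.02 and a correlation of log2 CPM across loci of 0.990 against 0.996. Markers of shoots were scarce. STM, FIL and the other shoot identity genes except AS1 stayed at or below 0.321 CPM, and 24 photosynthesis genes summed to 164 and 153 CPM in wild type and 163 and 192 CPM in dwf4. Root markers were present in every library, among them the root meristem regulator SCR at 57.8 and 63.1 CPM in wild type and 75.6 and 76.2 CPM in dwf4. In these bulk samples, fewer cells of a type and less RNA per cell cannot be told apart.

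Of the tested loci, 2487 differed between the genotypes (12.7%) by edgeR's quasi-likelihood test at an adjusted p under 0.05. In dwf4 937 were higher (4.79%) and 1550 were lower (7.93%). Counts of called genes in the lists below are to be read beside these shares. Most differences were small: 1319 of the called loci changed less than 1.5-fold, 711 changed 1.5 to 2-fold, and 104 changed over 4-fold. The large changes leaned the other way from the rest, since 73 of the 104 were rises. The balance of rises and falls depended on the scaling. With library totals in place of TMM factors 1321 loci were higher and 1209 lower, and the median of all loci moved by 0.0516 on the log2 scale, so that values closer to 0 than this carry no direction. The count also rested on both wild-type libraries: without wild-type library 1 it was 667, and without library 2 it was 575. Calls of listed genes were therefore repeated with 1 library left out, and where 4 counts are given below they follow the order wild-type library 1, wild-type library 2, dwf4 library 1 and dwf4 library 2. Called loci were spread over the 5 chromosomes at 11.5% to 14.1% of those tested, and within 1 Mb on either side of DWF4 55 of 418 tested loci were called (13.2%).

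**Figure D1:**
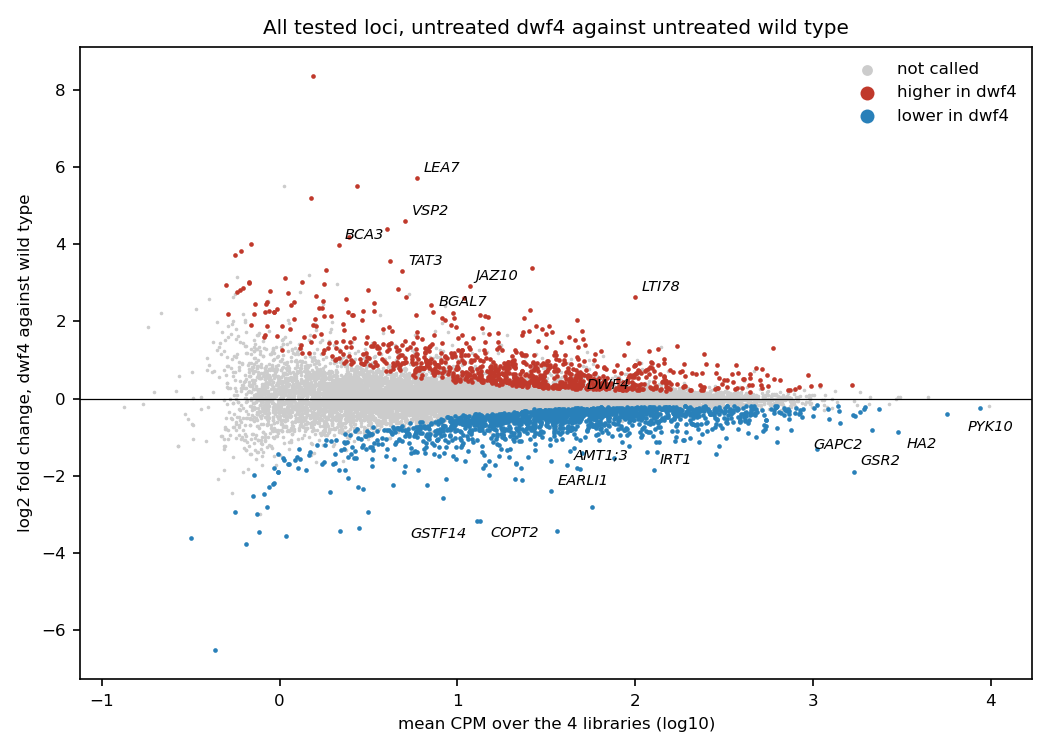
Log2 fold change in untreated dwf4 against wild type (y axis) against the mean CPM of the 4 libraries (x axis, log10), with 1 point per tested locus. The 937 higher loci are red, the 1550 lower loci blue and the others grey. The outermost points at the top and bottom are loci without a count in 1 genotype (LTI65 in wild type and ACOS5 in dwf4), whose fitted fold changes are no bounds.

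The DWF4 transcript itself (AT3G50660, chr3:18813949-18817405, TAIR10.1) stood at 49.8 and 51.9 CPM in the wild-type libraries and 47.6 and 48.5 CPM in the dwf4 libraries. The difference did not pass the test (log2 fold change -0.08 with SE 0.0675, adjusted p = 0.493), and since an allele need not alter the amount of its transcript, this value does not check the genotype. Among the 8 genes of brassinosteroid synthesis 3 rose, none fell, and the list median was 0.28 against 0.01 over all tested loci. BR6OX2 (AT3G30180, chr3:11810726-11813883), the oxidase of the last steps to BL, stood at 24.4 and 27.2 CPM in wild type and 81.1 and 69.8 CPM in dwf4 (log2 fold change 1.54 with SE 0.105, adjusted p = 0.000141). CPD (AT5G05690), the P450 known from the constitutive photomorphogenesis and dwarfism mutant, stood at 36.2 and 38.8 CPM and 59.5 and 61.8 CPM (log2 fold change 0.69 with SE 0.0716, adjusted p = 0.000857). For both genes every dwf4 library lay above every wild-type library, but the groups of DWF4, which was not called, did not overlap either. The rise of CYP90D1, a P450 that acts beside ROT3, was smaller, from 62.5 and 61.9 CPM to 82.5 and 76.8 CPM (log2 fold change 0.36 with SE 0.0802, adjusted p = 0.0229). BR6OX2 and CPD kept their calls in each of the 11 alternative analyses, whereas the call of CYP90D1 ended without either wild-type library or without dwf4 library 1 (adjusted p up to 0.174).

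The other synthesis genes did not pass. ROT3 had the lowest value of the list (log2 fold change -0.23, adjusted p = 0.0932), and DET2, BR6OX1 and DWF1 lay between 0.13 and 0.33. Of 7 genes of sterol synthesis, which supplies the precursors, SMT1 alone rose (log2 fold change 0.21 with SE 0.0529, adjusted p = 0.0346), a call that leaving out any 1 of the 4 libraries ended (adjusted p up to 0.24).

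Genes that inactivate brassinosteroids moved in the opposite direction: 2 of 4 tested members fell and none rose, with a list median of -0.29. SOB7 (AT1G17060, also CYP72C1), a P450 that lowers active hormone levels, stood at 48.3 and 51.7 CPM in wild type and 24.1 and 31.0 CPM in dwf4 (log2 fold change -0.86 with SE 0.113, adjusted p = 0.00236). BAS1 (AT2G26710), the hydroxylase that inactivates BL, stood at 16.6 and 15.2 CPM and 10.4 and 10.9 CPM (log2 fold change -0.58 with SE 0.102, adjusted p = 0.00887). Neither gene had overlapping groups, but nor did DWF4, which was not called. SOB7 kept its call in every alternative, and that of BAS1 ended without a wild-type library (adjusted p up to 0.0811). The reductase gene BEN1 and the acyltransferase gene BIA1 were near no change (log2 fold changes -0.01 and 0.10), and the glucosyltransferase genes UGT73C5 and UGT73C6 were too low to be tested.

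**Figure D2:**
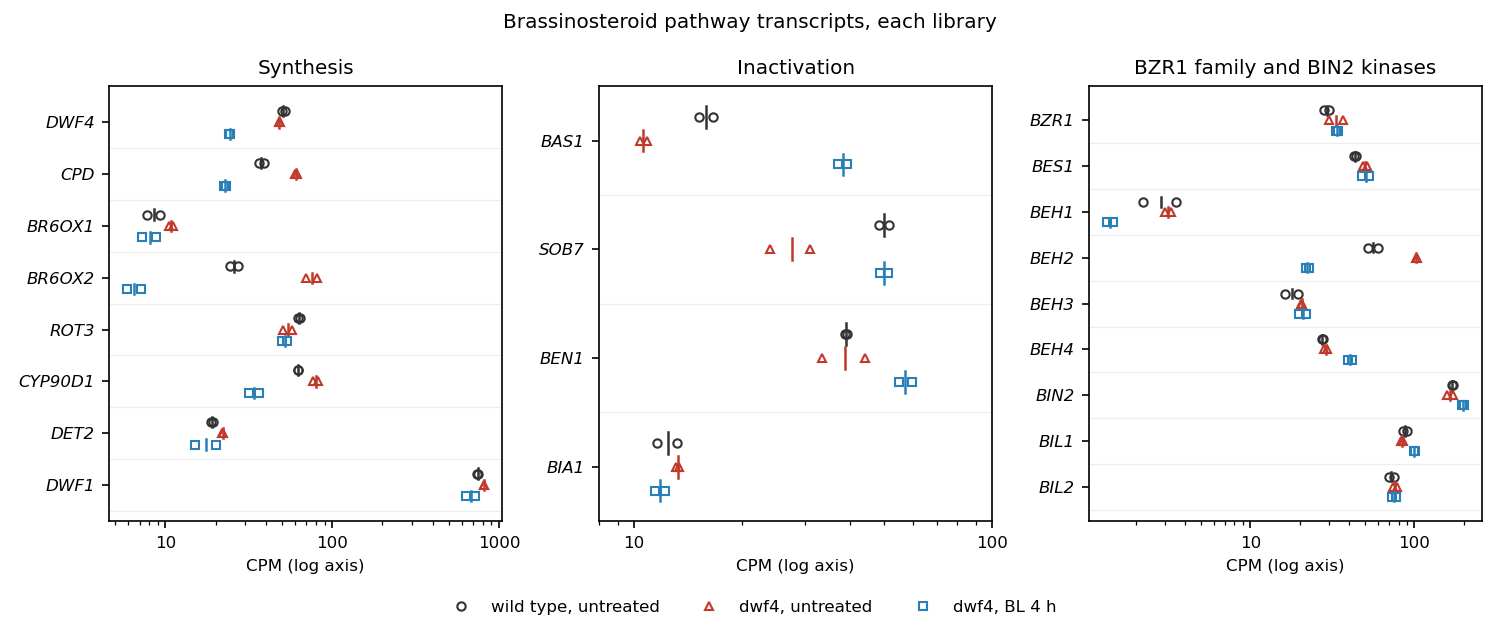
CPM (log axes) of brassinosteroid synthesis genes, inactivation genes, and genes of the BZR1 family and BIN2 kinases in each library. Open symbols are single libraries and short lines are means of 2. BR6OX2, CPD and BEH2 lie higher in untreated dwf4 than in wild type and lower after BL. SOB7 and BAS1 lie lower in untreated dwf4 than in wild type. After BL both lie higher than in untreated dwf4, with SOB7 near wild type and BAS1 above it.

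The signalling genes downstream of synthesis were called about as often as all loci (12.7%). Of 9 tested genes for receptors and their membrane partners only BRI1 rose, from 132 and 136 CPM in wild type to 151 and 179.7 CPM in dwf4 (log2 fold change 0.31 with SE 0.0812, adjusted p = 0.042). That call ended without either wild-type library, without dwf4 library 2 and in DESeq2. It also ended when only the 4 compared libraries were fitted, without the BL-treated dwf4 libraries. In the BZR1 family and the BIN2 kinases 1 of 9 genes rose. This was BEH2 (AT4G36780), a close relative of BZR1, at 60.1 and 51.9 CPM in wild type and 102 and 103 CPM in dwf4 (log2 fold change 0.88 with SE 0.0789, adjusted p = 0.000501), a call kept in all 11 alternatives. BZR1 (log2 fold change 0.19), BES1 (0.21) and BIN2 (-0.05) did not pass.

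In the list of growth bHLH genes, which holds PRE and BEE genes and antagonists, PRE6 and PRE3 rose and none of the 6 tested fell. Of all tested loci 4.79% rose. PRE6, which encodes an atypical bHLH protein of cell elongation, stood at 3.77 and 2.79 CPM in wild type and 11.8 and 7.11 CPM in dwf4 (log2 fold change 1.55 with SE 0.266, adjusted p = 0.00778), and PRE3 at 68.8 and 73.3 CPM and 82.9 and 88.8 CPM (log2 fold change 0.27). Both calls ended without either wild-type library, and that of PRE3 also without dwf4 library 2. BEE1 (-1.05) and HBI1 (-0.56) had negative values that did not pass (adjusted p = 0.398 and 0.483), and the list median was -0.17. BNQ2 and BNQ3, relatives dropped from the list over their symbols, were not called (log2 fold changes 0.75 and -1.33, adjusted p = 0.177 and 0.0535).

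The sequences just before BEH2, BR6OX2 and CPD are shown because these genes had the 3 lowest adjusted p-values of the brassinosteroid lists and because BZR1 is known to bind CGTGTG and CGTGCG, and with its partners also CACGTG, the G-box. Each run is the 250 bases before the annotated gene start in the TAIR10.1 reference (RefSeq), 5′ to 3′ on the strand of the gene. Capitals mark matches to any of the 3 motifs on either strand, which can overlap one another.
BEH2, chr4:17334356-17334605, minus strand: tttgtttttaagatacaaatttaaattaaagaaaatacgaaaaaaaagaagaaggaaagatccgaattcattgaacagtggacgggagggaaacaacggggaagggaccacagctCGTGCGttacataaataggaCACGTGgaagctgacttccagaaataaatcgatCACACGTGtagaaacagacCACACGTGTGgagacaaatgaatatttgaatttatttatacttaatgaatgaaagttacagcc
BR6OX2, chr3:11810476-11810725, plus strand: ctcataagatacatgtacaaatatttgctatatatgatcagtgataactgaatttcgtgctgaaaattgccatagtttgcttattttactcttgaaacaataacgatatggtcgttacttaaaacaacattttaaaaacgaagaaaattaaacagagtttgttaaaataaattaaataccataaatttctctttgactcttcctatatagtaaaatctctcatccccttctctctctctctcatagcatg
CPD, chr5:1706949-1707198, minus strand: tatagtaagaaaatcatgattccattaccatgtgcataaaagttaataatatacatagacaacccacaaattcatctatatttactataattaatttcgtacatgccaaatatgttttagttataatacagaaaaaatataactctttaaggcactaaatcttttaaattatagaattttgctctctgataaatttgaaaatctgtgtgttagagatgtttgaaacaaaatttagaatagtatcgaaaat
The BEH2 window held 3 matches to CGTGTG, 1 to CGTGCG and 3 to CACGTG, and neither the BR6OX2 window nor the CPD window held any. Of the same windows before all 27443 protein-coding genes, 5.37% held CGTGTG, 1.57% held CGTGCG and 6.49% held CACGTG. For the 937 loci higher in dwf4 the shares were 9.93%, 2.88% and 14.4%. They were 4.72%, 1.23% and 5.05% for 1546 lower loci with a window, and 5.57%, 1.74% and 7.27% for 19511 tested loci. A match is a description of letters in a window, not a binding site.

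The 15 largest rises among called genes with a symbol and a mean of at least 2 CPM included genes of jasmonate response, of dehydration and of cell-wall or sugar metabolism. VSP2 (AT5G24770), a jasmonate-induced vegetative storage protein gene, stood at 0.481 and 0.324 CPM in wild type and 9.65 and 9.96 CPM in dwf4 (log2 fold change 4.60 with SE 0.387, adjusted p = 0.000379). TAT3 (AT2G24850), a jasmonate-responsive tyrosine aminotransferase gene, stood at 0.721 and 1.04 CPM and 9.58 and 8.28 CPM (log2 fold change 3.31 with SE 0.48, adjusted p = 0.0036). For both, the dwf4 libraries were close to each other and far above wild type, though the choice of genes required groups without overlap. BGAL7 (AT5G20710), a beta-galactosidase gene, stood at 2.24 and 2.79 CPM in wild type and 12.2 and 11.8 CPM in dwf4 (log2 fold change 2.24 with SE 0.216, adjusted p = 0.000621). BCA3, a carbonic anhydrase gene, went from 0.0801 and 0.389 CPM to 5.38 and 2.76 CPM (log2 fold change 3.98 with SE 0.553).

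Several of the largest rises were uneven between the dwf4 libraries. The late embryogenesis abundant gene LEA7, a marker of desiccation, stood at 0.321 and 0.130 CPM in wild type and 18.8 and 4.52 CPM in dwf4 (log2 fold change 5.71 with SE 0.966, adjusted p = 0.00729). The cold and drought gene LTI78 stood at 30.6 and 25.9 CPM and 286 and 58.9 CPM (log2 fold change 2.62 with SE 0.591, adjusted p = 0.0232), so that dwf4 library 1 was 4.86 times library 2. JAZ10, a repressor gene of jasmonate signalling, showed the reverse order, at 2.64 and 2.79 CPM in wild type and 9.73 and 31.7 CPM in dwf4 (log2 fold change 2.92 with SE 0.8, adjusted p = 0.0477). CML38, a calmodulin-like gene, followed JAZ10 in this, with 2.72 and 3.31 CPM and 7.52 and 29.9 CPM (log2 fold change 2.61 with SE 0.675). LEA4-5, another desiccation gene, was more even at 2.00 and 2.46 CPM and 14.7 and 9.29 CPM (log2 fold change 2.41 with SE 0.259, adjusted p = 0.000976).

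Of the remaining rises, PSK2, a precursor of the growth peptide phytosulfokine, went from 3.124 and 3.502 CPM to 10.2 and 21.0 CPM (log2 fold change 2.22 with SE 0.419). ARGOS, an auxin-regulated gene of organ size, went from 1.92 and 2.33 CPM to 13.0 and 6.19 CPM (log2 fold change 2.16 with SE 0.359). BGLU24, PAP24, GolS4 and ASN1 rose by 2.16 to 2.83 on the log2 scale, encoding a beta-glucosidase, a purple acid phosphatase, a galactinol synthase and an asparagine synthetase. VSP2, BCA3, LEA4-5 and BGAL7 kept their calls in every alternative. The calls of LEA7, TAT3, JAZ10, BGLU24, LTI78, CML38, PAP24, GolS4, PSK2, ARGOS and ASN1 ended without wild-type library 1 and also without library 2. Those of JAZ10 and CML38 also ended without dwf4 library 2, and those of GolS4 and ASN1 without dwf4 library 1. GolS4 was also not called with only the 4 compared libraries fitted, nor ASN1 in DESeq2 or with all 18 libraries. JAZ10, CML38 and GolS4 were not called with the replicate numbers as a block.

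**Figure D3:**
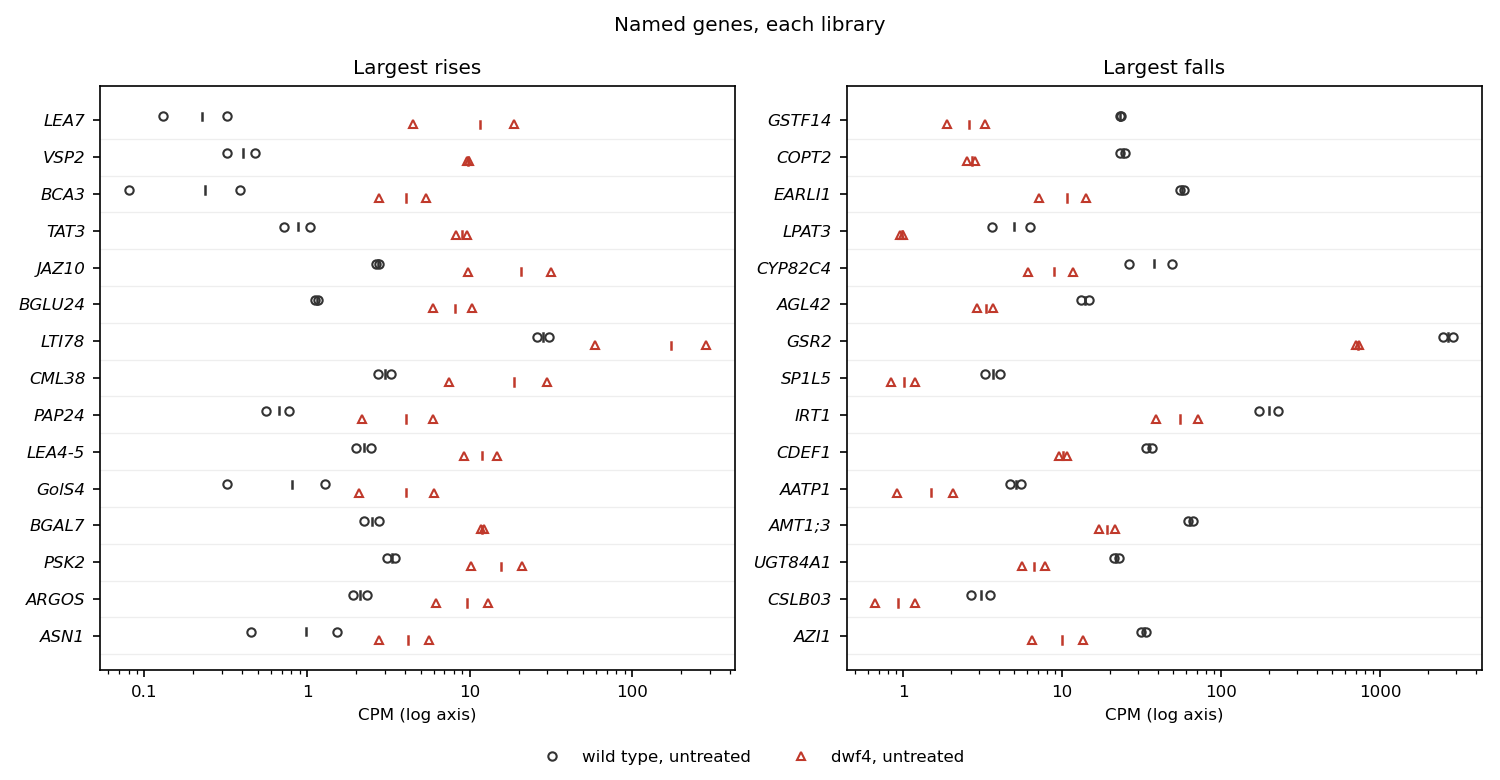
CPM (log axes) of the 15 largest rises and the 15 largest falls in each library. Open circles are wild type, open triangles dwf4, and short lines the means of 2 libraries. The groups do not overlap for any gene, as the choice of genes required, and LTI78, LEA7, CML38 and JAZ10 have the widest spread between dwf4 libraries.

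The 15 largest falls included transporters for metals and nitrogen. COPT2 (AT3G46900), a copper uptake transporter gene, stood at 25.0 and 23.1 CPM in wild type and 2.53 and 2.85 CPM in dwf4 (log2 fold change -3.16 with SE 0.154, adjusted p = 4.88e-05). IRT1 (AT4G19690), the main iron uptake transporter of root epidermis, stood at 172 and 226 CPM and 39.1 and 71.3 CPM (log2 fold change -1.86 with SE 0.27, adjusted p = 0.00363). AMT1;3 (AT3G24300), an ammonium transporter gene, stood at 66.0 and 62.1 CPM and 21.4 and 17.1 CPM (log2 fold change -1.73 with SE 0.107, adjusted p = 0.000108). The glutamine synthetase gene GSR2 (AT1G66200), which acts on ammonium inside the cell, was the most abundant of the 15, at 2875 and 2494 CPM in wild type and 704 and 740.1 CPM in dwf4 (log2 fold change -1.90 with SE 0.0762, adjusted p = 3.11e-05). In all 4 genes every dwf4 library lay below every wild-type library, as the choice of these genes required.

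Among the other large falls GSTF14 (AT1G49860), a glutathione S-transferase gene, went from 23.3 and 23.0 CPM to 1.90 and 3.26 CPM (log2 fold change -3.17 with SE 0.201, adjusted p = 0.000118). EARLI1 and AZI1, neighbouring genes for lipid-transfer-like proteins, of which AZI1 is known from systemic immunity, went from 58.2 and 55.3 CPM to 14.1 and 7.20 CPM (log2 fold change -2.41 with SE 0.214) and from 31.5 and 33.9 CPM to 13.5 and 6.44 CPM (log2 fold change -1.70 with SE 0.258). CYP82C4, a P450 of coumarin synthesis under low iron, went from 26.1 and 49.2 CPM to 6.09 and 11.6 CPM (log2 fold change -2.10 with SE 0.416), with 17.5% of its 36-base windows repeated elsewhere in the genome. The MADS-box gene AGL42, known from the quiescent centre, went from 13.1 and 14.7 CPM to 2.93 and 3.68 CPM (log2 fold change -2.08 with SE 0.189). CDEF1, a cutinase gene, went from 33.8 and 36.9 CPM to 9.50 and 10.7 CPM (log2 fold change -1.81 with SE 0.111). LPAT3, an acyltransferase gene, UGT84A1, a glucosyltransferase gene, CSLB03, a cellulose-synthase-like gene, SP1L5 and AATP1 fell by -1.70 to -2.35 (negative log2 fold changes). The calls of IRT1, CYP82C4, SP1L5, AATP1, CSLB03 and AZI1 ended without at least 1 wild-type library (adjusted p up to 0.0553, 0.144, 0.0812, 0.104, 0.12 and 0.0626), that of CSLB03 also without dwf4 library 2, and the 9 others kept theirs in every alternative.

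The 5 most abundant called transcripts in each direction changed by less than 2-fold. GSR2, described above, was abundant too but not among the 5 falls, and it fell further (log2 fold change -1.90). PYK10 (AT3G09260), the beta-glucosidase of root ER bodies, stood at 9210.0 and 9835 CPM in wild type and 7909 and 8116 CPM in dwf4 (log2 fold change -0.25 with SE 0.064, adjusted p = 0.0379). HA2 (AT4G30190), a proton pump of the plasma membrane, stood at 3925 and 3854 CPM and 2158 and 2138 CPM (log2 fold change -0.86 with SE 0.0517, adjusted p = 0.000101), and the glycolytic gene GAPC2 at 2785 and 2694 CPM and 1537 and 1592 CPM (log2 fold change -0.81 with SE 0.0527, adjusted p = 0.000128). HA2 and GAPC2 had the largest of these 5 falls. Their calls held in every alternative, as did that of the extensin-like gene AT2G43150. The call of PYK10 ended without any 1 of the 4 libraries and with library totals. AT2G43150 and GAPC1 fell by 0.39 and 0.27 on the log2 scale. On the higher side JAL34, a lectin gene, the protease-inhibitor-like gene DR4, the arabinogalactan protein gene AGP31, BGLU21 and SHD, an ER chaperone gene, rose by 0.30 to 0.61. The rises of JAL34, DR4, AGP31 and SHD and the fall of GAPC1 did not hold without either wild-type library. Those of DR4 and AGP31 also ended without dwf4 library 2, and those of SHD and GAPC1 without dwf4 library 1. The call of DR4 ended as well with only the 4 compared libraries fitted and with all 18.

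Jasmonate response genes had the highest median of the 39 lists, which were chosen with earlier results of these data known. Of 16 tested genes of jasmonate signalling and response 6 rose, none fell, and the median was 1.42. The lowest value was that of JAZ12 (0.05), too near 0 for a direction. The repressor gene JAZ1 stood at 95.7 and 97.7 CPM in wild type and 171 and 326 CPM in dwf4 (log2 fold change 1.36 with SE 0.309, adjusted p = 0.0239), and VSP1, a storage protein gene, at 12.9 and 16.9 CPM and 37.2 and 47.1 CPM (log2 fold change 1.49 with SE 0.23, adjusted p = 0.00476). JAZ3 and JAZ9 also rose, by 0.73 and 2.08. JAZ4 and JAZ11, family members outside the list, were looked up afterwards. JAZ4 fell from 5.05 and 7.33 CPM in wild type to 3.25 and 2.43 CPM in dwf4 (log2 fold change -1.13 with SE 0.275, adjusted p = 0.0306), a call that ended without either wild-type library, without dwf4 library 2 and in DESeq2 (adjusted p up to 0.241), and JAZ11 was near 0 (0.05). For VSP1 and VSP2 4.22% and 3.6% of 36-base windows are repeated elsewhere in the genome. MYC2, the central transcription factor, had a log2 fold change of 0.71 that did not pass (adjusted p = 0.0601), and the receptor gene COI1 was near 0 (0.10).

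The jasmonate response list summed to 429 and 443 CPM in wild type and 629 and 1068 CPM in dwf4, higher in both dwf4 libraries and far higher in library 2. With libraries left out in turn, 1, 2, 6 and 4 of the 6 calls held; VSP2 held each time, and JAZ9 and JAZ10 were those lost without dwf4 library 2. Of 10 tested jasmonate synthesis genes LOX6, a lipoxygenase gene, rose from 31.5 and 30.0 CPM to 57.5 and 49.0 CPM (log2 fold change 0.80 with SE 0.159), and AOC4, an allene oxide cyclase gene, from 69.7 and 76.7 CPM to 104 and 93.6 CPM (log2 fold change 0.43 with SE 0.0814). Neither call held without a wild-type library. AOS and OPR3 had values of 0.85 and 0.73 that did not pass.

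Genes of touch and rapid stress, known to respond quickly to handling, were measured beside them. Of 8 genes 2 rose and none fell, the values ran from 0.01 to 1.69, and the list median was 0.86. They summed to 212 and 196 CPM in wild type and 231 and 420.1 CPM in dwf4, so the excess lay mainly in dwf4 library 2. WRKY40 stood at 11.9 and 4.47 CPM and 17.0 and 34.4 CPM (log2 fold change 1.69 with SE 0.454, adjusted p = 0.0446), and ZAT10 at 29.8 and 20.5 CPM and 38.8 and 60.4 CPM (log2 fold change 0.99 with SE 0.251, adjusted p = 0.0366), and both calls ended without either wild-type library or dwf4 library 2 (adjusted p up to 0.275 and 0.266). None of the 4 tested heat shock genes passed. The part of handling in the jasmonate values was not tested.

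Cell-wall loosening genes changed in both directions. Of 27 tested xyloglucan endotransglucosylases, which cut and rejoin wall xyloglucan, 3 rose and 6 fell, and the median was -0.02. XTH16 stood at 23.8 and 30.4 CPM in wild type and 14.2 and 14.9 CPM in dwf4 (log2 fold change -0.90 with SE 0.144, adjusted p = 0.00555), and XTH17 at 68.5 and 75.2 CPM and 38.8 and 48.8 CPM (log2 fold change -0.72 with SE 0.108, adjusted p = 0.00413). XTH21, XTH31, XTH8 and XTH30 fell by 0.84, 0.51, 0.44 and 0.34. In the other direction, XTH26 went from 5.69 and 5.64 CPM to 12.7 and 13.0 CPM (log2 fold change 1.18 with SE 0.163, adjusted p = 0.00298), and XTH14 and XTH12 rose by 0.76 and 0.70. With libraries left out in turn, 6, 3, 6 and 9 of the 9 calls held, and XTH21, XTH26 and XTH31 held each time.

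Expansins, which loosen walls without cutting them, changed in both directions, with 3 higher and 3 lower of 20 tested. The expansin-like gene EXLA2 showed the largest fall, from 9.05 and 8.04 CPM to 2.69 and 3.85 CPM (log2 fold change -1.38 with SE 0.178, adjusted p = 0.00213), and it alone kept its call in every alternative. EXPA4 and EXPB1 fell by 0.41 and 0.58. EXPA12 went from 0.561 and 1.04 CPM to 2.69 and 2.59 CPM (log2 fold change 1.68 with SE 0.358), and EXPA11 and EXLB1 rose by 0.63 and 0.51. In the same order 1, 2, 5 and 5 of these 6 calls held. EXP3 (AT2G37640), a further expansin that had been dropped from the list over its symbol, was looked up afterwards and rose from 1.12 and 0.973 CPM to 4.19 and 2.93 CPM (log2 fold change 1.77 with SE 0.3, adjusted p = 0.0073), a call that ended without either wild-type library (adjusted p = 0.0635 and 0.0954).

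Genes of cellulose synthesis fell in primary and secondary wall lists. All 9 tested primary-wall genes had negative log2 fold changes, and 3 fell by small amounts: CTL1 (log2 fold change -0.37 with SE 0.0567, adjusted p = 0.0047), the endoglucanase gene KOR1 (-0.30 with SE 0.0531, adjusted p = 0.00894) and the synthase gene CESA3 (-0.21 with SE 0.0545, adjusted p = 0.0413). Without wild-type library 1 only the call of KOR1 held, without library 2 none did, and without either dwf4 library that of CESA3 ended; CESA3 was also not called with library totals. In the list of xylem and secondary wall, 10 of 16 genes fell, none rose, all 16 values were negative, and the median was -0.50. The list summed to 840.1 and 884 CPM in wild type and 592 and 599.9 CPM in dwf4.

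The secondary-wall cellulose synthases CESA4, CESA7 and CESA8 fell by 0.54, 0.52 and 0.53. CESA7 stood at 66.1 and 70.7 CPM in wild type and 46.4 and 48.8 CPM in dwf4 (log2 fold change -0.52 with SE 0.0691, adjusted p = 0.00238). The xylem proteases XCP1 and XCP2, which clear the contents of dying vessel cells, went from 165 and 178 CPM to 116 and 119.5 CPM (log2 fold change -0.54 with SE 0.0604) and from 144 and 154 CPM to 93.0 and 97.7 CPM (log2 fold change -0.64 with SE 0.0613, adjusted p = 0.000592). The laccases of lignin formation LAC4 and LAC17 fell by 0.44 and 0.60. The switches of xylem fate were negative without passing: VND6 (-0.41), VND7 (-0.30), MYB46 (-0.16) and MYB83 (-0.14). Of these calls 7, 4, 10 and 9 of 10 held with libraries left out in turn, those of CESA7, XCP1, XCP2 and LAC17 each time.

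Genes of the endodermal barriers also fell. Of 7 tested Casparian strip genes 4 fell and 1 rose. CASP1, a scaffold protein gene of the strip, stood at 143 and 146 CPM in wild type and 88.2 and 101 CPM in dwf4 (log2 fold change -0.61 with SE 0.0751, adjusted p = 0.00183). Its relative CASP5 went the other way, from 5.69 and 7.65 CPM to 16.5 and 12.2 CPM (log2 fold change 1.09 with SE 0.183, adjusted p = 0.00698), and MYB36, the transcription factor that switches on the strip genes, was near 0 (-0.05). Of these 5 calls, 2, 3, 5 and 5 held with libraries left out in turn, that of CASP1 each time.

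Suberin synthesis genes, of the later lipid barrier, gave 6 falls and no rise among 10, with a median of -0.52. CYP86A1, the main fatty-acid hydroxylase of root suberin, stood at 279.8 and 265 CPM in wild type and 128 and 139 CPM in dwf4 (log2 fold change -1.03 with SE 0.0617, adjusted p = 0.000101), and CYP86B1 at 85.1 and 85.9 CPM and 56.1 and 57.8 CPM (log2 fold change -0.59 with SE 0.0621, adjusted p = 0.000915). The acyltransferase genes GPAT5 and GPAT7 and the reductase genes FAR1 and FAR5 fell by 0.58, 0.60, 0.67 and 0.46. With libraries left out in turn 3, 2, 5 and 6 of the 6 calls held, those of CYP86A1 and CYP86B1 each time. In the phloem list SUC2, the sucrose loader of companion cells, fell from 34.5 and 37.2 CPM to 20.5 and 17.9 CPM (log2 fold change -0.90 with SE 0.114, adjusted p = 0.00203), SEOR1 fell by 0.52, and the 7 other genes did not pass. Without either wild-type library the call of SUC2 held and that of SEOR1 did not.

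Some regulators of the root tip rose slightly. Of 13 tested regulators of stem cells and meristem 4 rose and none fell, with a median of 0.33. The values ran from -0.81 to 0.82, with 10 positive and 3 negative. PLT3, a transcription factor gene of meristem maintenance, stood at 48.1 and 48.6 CPM in wild type and 80.9 and 90.3 CPM in dwf4 (log2 fold change 0.82 with SE 0.0765, adjusted p = 0.000536). MYB56, also called BRAVO, a brake on division in the quiescent centre, went from 14.9 and 15.2 CPM to 25.2 and 22.8 CPM (log2 fold change 0.67 with SE 0.101, adjusted p = 0.00424). PLT2 and SCR rose by 0.54 and 0.33, and the quiescent-centre gene WOX5 had a value of 0.55 that did not pass (adjusted p = 0.366). AGL42, outside this list and also known from the quiescent centre, fell (log2 fold change -2.08). With libraries left out in turn 1, 1, 3 and 4 of the 4 calls held, that of PLT3 each time. In the root cap list BRN1 rose by 0.51, a call lost without either wild-type library or dwf4 library 2.

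Cell division genes were near or below wild type. The 16 mitosis genes had log2 fold changes from -0.47 to -0.05, the upper end too near 0 for a direction, with a median of -0.20. Of the 16, 2 fell, against 7.93% of all tested loci: the kinase gene AUR1, from 27.8 and 26.9 CPM to 19.6 and 19.9 CPM (log2 fold change -0.47 with SE 0.0809, adjusted p = 0.00788), and the cyclin gene CYCB1;3 (log2 fold change -0.40, adjusted p = 0.0306). Both calls ended without either wild-type library, and that of CYCB1;3 also without dwf4 library 1 and with library totals. None of the 10 DNA replication genes passed, nor did any of the 7 cell-cycle inhibitors, with medians of -0.05 and 0.05. The labels' protocols give the harvested tissue as the tip section of a root cut into 2 sections, and how much of each zone that section held in either genotype is not stated. The part of tissue share in the meristem, xylem and endodermis values was not tested.

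Of 15 genes that build root hairs 5 rose and none fell, where 4.79% of all tested loci rose. PRP1, a proline-rich wall protein gene, stood at 85.5 and 86.8 CPM in wild type and 168 and 158 CPM in dwf4 (log2 fold change 0.92 with SE 0.115, adjusted p = 0.00187), and PRP3 at 183 and 163 CPM and 253 and 283 CPM (log2 fold change 0.63 with SE 0.132). COW1, RHS13 and LRX1 rose by 0.72, 0.63 and 0.46. The transcription factor genes RHD6, RSL1, RSL2, RSL4 and LRL3 did not pass, with values from 0.08 to 0.55. In the list of epidermal fate 1 of 9 genes changed, about the share of all tested loci (12.7%): SCM, the receptor kinase that places hair files, fell from 56.8 and 61.3 CPM to 41.8 and 36.7 CPM (log2 fold change -0.59 with SE 0.0848, adjusted p = 0.00348). Of the 5 rises 1, 1, 5 and 4 held with libraries left out in turn, that of PRP1 each time, and SCM lost it without wild-type library 2 (adjusted p = 0.0577).

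Several auxin genes were lower in dwf4. Of 9 tested auxin synthesis genes 4 fell and none rose, with a median of -0.61. TAR2, a tryptophan aminotransferase gene, stood at 19.3 and 24.2 CPM in wild type and 9.97 and 10.1 CPM in dwf4 (log2 fold change -1.12 with SE 0.139, adjusted p = 0.00186), and its relative TAA1 fell by 0.54 on the log2 scale (adjusted p = 0.0112). The flavin monooxygenase genes YUC3 and YUC6 fell by 0.65 and 0.61. Of the 4 calls 2, 1, 3 and 4 held with libraries left out in turn, that of TAR2 each time.

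Of the auxin response genes, 3 of 25 Aux/IAA repressors fell (IAA9, IAA14 and IAA16), against 7.93% of all tested loci. Values of this list ran from -1.22 to 1.66, with 8 positive and 17 negative. IAA16 had 262 and 257 CPM in wild type and 188 and 184 CPM in dwf4 (log2 fold change -0.48 with SE 0.0509, adjusted p = 0.000915). The auxin-conjugating GH3.2 and GH3.3 fell from 18.4 and 16.6 CPM to 9.101 and 10.96 CPM (log2 fold change -0.80 with SE 0.141, adjusted p = 0.00847) and from 4.65 and 4.93 CPM to 1.58 and 2.26 CPM (log2 fold change -1.32 with SE 0.273, adjusted p = 0.0163). Among the transporters PIN4, an efflux carrier, rose by 0.53, LAX1 and ABCB1 fell by 0.61 and 0.31, and the other 11 did not pass. Without wild-type library 1 only the call of IAA16 among these 8 held, and the same without wild-type library 2, while 5 and 6 of the 8 held without dwf4 library 1 and 2.

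Calls among cytokinin, gibberellin and ethylene genes went in both directions, where 12.7% of all tested loci were called. The type-A response regulator ARR3 rose from 14.7 and 13.4 CPM to 37.0 and 26.6 CPM (log2 fold change 1.18 with SE 0.165, adjusted p = 0.003) and ARR15 from 0.641 and 0.778 CPM to 3.88 and 2.51 CPM (log2 fold change 2.15 with SE 0.353, adjusted p = 0.00635), 2 of 9 tested. The gibberellin synthesis gene GA20OX2 rose from 5.77 and 5.97 CPM to 14.7 and 10.8 CPM (log2 fold change 1.12 with SE 0.173, adjusted p = 0.00476), while GA3OX1 and GA3OX2, which make the active hormone, fell by 0.78 and 1.04. The inactivating gene GA2OX8 fell from 1.84 and 1.62 CPM to 0.712 and 0.335 CPM, and GA2OX7, with 3 counts over both wild-type libraries, rose to 1.27 and 0.502 CPM. Of 10 ethylene synthesis genes ACS7 rose from 4.73 and 5.51 CPM to 11.4 and 20.8 CPM (log2 fold change 1.64 with SE 0.324, adjusted p = 0.0139) and ACS5 fell from 4.81 and 4.61 CPM to 1.98 and 2.26 CPM (log2 fold change -1.15 with SE 0.269, adjusted p = 0.0268). Of these 9 calls only that of ARR3 held without wild-type library 1 and only that of GA3OX1 without library 2, while 7 held without each dwf4 library.

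Nutrient uptake had the lowest list median, -1.31, with 4 falls among 6 tested genes, in lists chosen with earlier results of these data known. Beside COPT2 and IRT1 these were FRO2, the iron reductase gene that works with IRT1, at 38.2 and 62.6 CPM in wild type and 10.2 and 22.8 CPM in dwf4 (log2 fold change -1.62 with SE 0.396, adjusted p = 0.0313), and the nitrate transporter gene NRT1.1, at 636 and 647 CPM and 385 and 257 CPM (adjusted p = 0.00408). FRU (AT2G28160), the transcription factor gene also called FIT that switches on IRT1 and FRO2, was looked up after these values were seen. It stood at 38.5 and 40.1 CPM and 14.96 and 16.15 CPM (log2 fold change -1.34 with SE 0.114, adjusted p = 0.000386). In all of these the groups did not overlap, which the choice of COPT2 and IRT1 among the largest falls required. The call of FRU held in every alternative. Of the 4 list calls 3, 1, 3 and 4 held with libraries left out in turn, that of COPT2 each time.

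Of 20 aquaporin genes 6 fell and 1 rose. PIP1;4, a plasma-membrane water channel gene, stood at 113 and 111 CPM in wild type and 75.3 and 56.2 CPM in dwf4 (log2 fold change -0.77 with SE 0.115, adjusted p = 0.00408), and PIP2;6 at 17.2 and 16.5 CPM and 9.26 and 9.87 CPM (log2 fold change -0.82 with SE 0.102, adjusted p = 0.00186). PIP1;3, PIP1;5, PIP2;4 and PIP2;7 fell by 0.40, 0.59, 0.40 and 0.20, and the low-level PIP2;5 rose by 1.44. The tonoplast channel genes did not pass, TIP1;1 at -0.19 and TIP1;2 at 0.15 among them. Of the 7 calls 1, 2, 5 and 6 held with libraries left out in turn, that of PIP2;6 each time, and the fall of PIP2;7 was not called with library totals.

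Genes of defence metabolites rose in part. The regulators of indole glucosinolate synthesis MYB34, MYB51 and MYB122 and the enzyme gene CYP79B2 rose, and none of the 11 genes fell. MYB34 stood at 101 and 116 CPM in wild type and 172 and 166 CPM in dwf4 (log2 fold change 0.64 with SE 0.0979, adjusted p = 0.00446), and CYP79B2 at 336 and 331 CPM and 458 and 496 CPM (log2 fold change 0.52 with SE 0.123, adjusted p = 0.0282). With libraries left out in turn 0, 1, 4 and 2 of the 4 calls held, that of MYB34 without wild-type library 2. Among ER body genes the myrosinase-type glucosidases BGLU21 and BGLU22 rose, from 738 and 749 CPM to 1177 and 1092 CPM (log2 fold change 0.61 with SE 0.0571, adjusted p = 0.000552) and from 374 and 397 CPM to 702 and 603 CPM (log2 fold change 0.76 with SE 0.0812, adjusted p = 0.000969), as did their regulator NAI1 (0.60), against the small fall of PYK10. For BGLU21 and BGLU22 10.2% and 9.9% of 36-base windows are repeated elsewhere in the genome, and reads that did not align uniquely were not counted. With libraries left out in turn 2, 2, 2 and 3 of the 4 ER body calls held. Of the photosynthesis list LHCB1.3 rose by 1.22, at 26.9% repeated windows, and no greening gene was called.

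**Figure D4:**
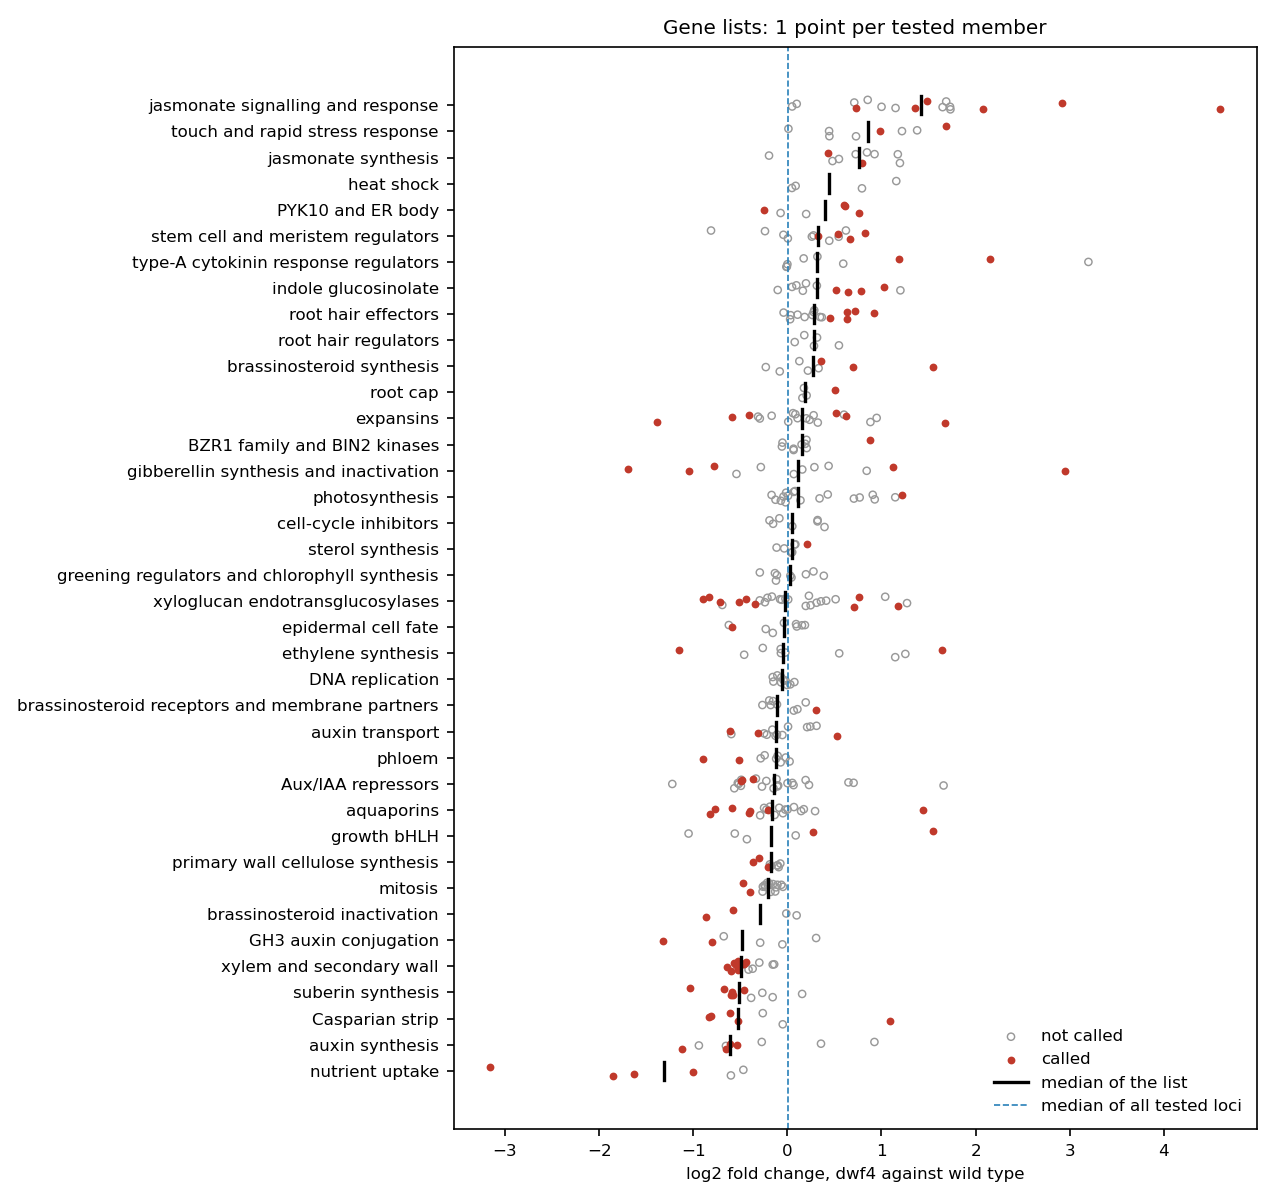
Log2 fold change in dwf4 against wild type (x axis) of each tested member of the 38 lists with at least 4 tested members, ordered by list median. Red points are called members, open points are not called, black lines are list medians, and the dashed line is the median of all tested loci. Jasmonate response lies at the top with a median of 1.42 and nutrient uptake at the bottom with -1.31. The lists were chosen with earlier results of these data known.

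The hormone-deficient mutant was set beside the receptor mutant. The bri1-116 comparison shares no library with that of dwf4, but it sets untreated roots against mock-treated Col-0, so genotype and handling cannot be told apart in it. It called 36.1% of loci in either direction, 16.7% higher and 19.4% lower. Of 2482 loci called in dwf4 and tested in both comparisons, 1757 were called in the same direction in bri1-116, 613 higher and 1144 lower. These were 70.8% of the dwf4 calls and 24.4% of the 7204 bri1-116 calls. Opposite directions were found for 95 loci, 3.83% of the dwf4 calls. Across all loci tested in both, the log2 fold changes correlated at r = 0.572, a description over genes, which are not independent replicates. The count of 1757 fell to 536 without wild-type library 1 and to 454 without library 2.

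BR6OX2 changed by nearly the same amount in both mutants, with log2 fold changes of 1.54 in dwf4 and 1.52 in bri1-116, and the jasmonate gene VSP2 likewise, at 4.60 and 4.76. The test of the difference did not pass for either gene (adjusted p = 0.979 and 0.933), which does not show that the effects were equal. CPD rose more in dwf4 (0.69 against 0.23, adjusted p of the difference = 0.00945), and DWF4 rose in bri1-116 (0.34) but was not called in dwf4 (-0.08, adjusted p of the difference = 0.0175). In the xylem list the median was -0.50 in dwf4 and -0.81 in bri1-116, and in the suberin list -0.52 and -0.96. The test of the difference called 5 of 16 xylem genes and 4 of 10 suberin genes, each lower in bri1-116, against 7.71% of all loci tested for it, 4.21% lower in bri1-116 and 3.5% higher.

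The difference was called for 511 of the 2487 loci called in dwf4 (20.6%), against 7.71% of all loci tested for it. These loci had been chosen by their dwf4 effect, which is part of the difference, so the shares cannot be compared directly. EARLI1 fell by 2.41 in dwf4 and rose by 1.68 in bri1-116 (adjusted p of the difference = 3.49e-05), and its neighbour AZI1 fell by 1.70 and rose by 1.02 (0.00142). COPT2 fell in both, by 3.16 in dwf4 and 1.66 in bri1-116 (0.00108), and GSR2 by 1.90 and 0.62 (7.6e-05). BGAL7 rose by 2.24 in dwf4 and stood at 0.31 in bri1-116 (0.000835). CASP5 rose by 1.09 in dwf4 and fell by 0.50 in bri1-116 (0.00104). The phloem list, at a median of -0.12 in dwf4, was at 0.41 in bri1-116, with 4 of 9 genes called lower and 1 higher in the difference. The number of loci called for the difference, 1572, was 869 without wild-type library 1, 917 without library 2, 927 without mock library 2 and 875 without bri1-116 library 2.

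**Figure D5:**
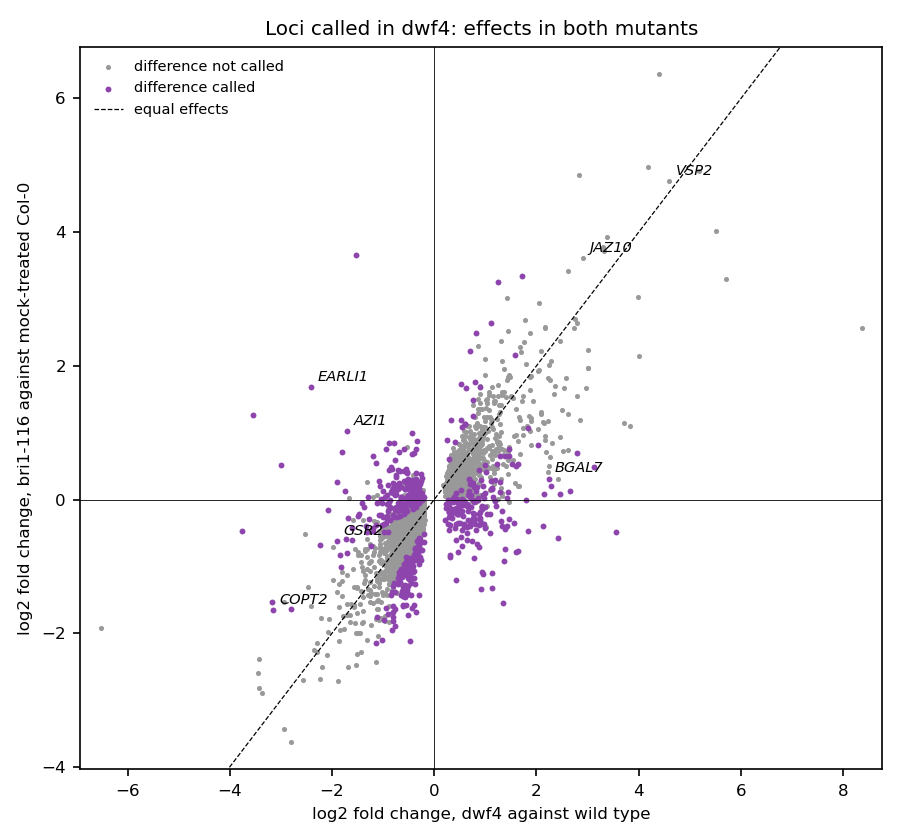
Log2 fold change in bri1-116 against mock-treated Col-0 (y axis) against that in dwf4 against wild type (x axis), with 1 point per locus called in dwf4. Purple points are loci for which the difference between the mutants was called, and the dashed line marks equal effects. Of the dwf4 calls, 88.7% had the same sign in both mutants, against 68.2% of all loci tested in both, and EARLI1 and AZI1 lie in the lower-in-dwf4, higher-in-bri1-116 quadrant.

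Loci called both in dwf4 and after BL in Col-0 mostly moved in opposite directions. Of the 2482 loci, 590 were called in the opposite direction after BL (23.8% of the dwf4 calls and 22.3% of the BL calls) and 74 in the same direction, with 13.0% of all tested loci called for BL, 6.37% higher and 6.59% lower. Correlation across all loci was r = -0.243. BL given to dwf4 itself is set against the same untreated dwf4 libraries, so only values are given side by side. It had no mock group, so that BL and handling cannot be told apart, and it called 13.3% of loci, 7.86% higher and 5.45% lower. After BL, BR6OX2 stood at 5.90 and 7.12 CPM, CPD at 23.0 and 22.5 CPM and BEH2 at 22.6 and 21.9 CPM, each below the wild-type level. SOB7 stood at 48.5 and 51.3 CPM, near wild type, and BAS1 at 37.2 and 39.5 CPM, above it.

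Among auxin genes after BL, TAR2 stood at 13.7 and 15.6 CPM, between the untreated genotypes, and GH3.2 at 69.0 and 57.5 CPM, above both. Against untreated dwf4 the xylem list had a median of 0.06 after BL, with CESA7 at 51.7 and 53.1 CPM and XCP2 at 109.7 and 109 CPM, below wild type. The jasmonate response list had a median of 0.28, and VSP2 stood at 10.8 and 6.39 CPM. COPT2, at 4.40 and 3.56 CPM, lay far below its wild-type level, whereas BGAL7, at 3.15 and 1.89 CPM, lay near its own.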

How the data were processed

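RNA-seq counts of reads per gene were deposited by the authors as whole numbers for each library. Reads were handled with TopHat 1.4.0, Bowtie and HTSeq on TAIR10, per the submitters' processing notes. Annotation release and strand setting: not given in the sources used here. The 5 closing lines that name no gene (10.9% to 12.0% of reads assigned to no gene) were left out. Names came from RefSeq TAIR10.1, which matched 32835 of 33602 loci.

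Counts were tested with edgeR 4.0.16 (R 4.3.3, limma 3.58.1): TMM factors, a low-count filter (count minimum 10, total 15), a prior count of 0.125 and the quasi-likelihood test with Benjamini-Hochberg adjustment at 0.05. The 6 libraries of 36 bp were fitted together, the 12 of 101 bp together, and all 18 for the difference between mutants. Steps were tested on simulated data, where false calls took a larger share than the threshold allows and most of the smallest changes were missed.

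Named genes were the 15 largest rises and falls among called genes that had a symbol, averaged 2 CPM or more and had groups without overlap, the 5 most abundant called in each direction, DWF4, and members of 39 lists (464 loci; 4 of 470 entries were dropped because their symbols differed in the annotation). Members and lists were chosen with earlier results of these data known. Alternatives included DESeq2 1.42.0, other scalings, no filter, other sets of libraries and each library left out. Same-numbered libraries of the genotypes did not deviate together (r = 0.018 across loci), so the numbers do not pair them. The values of 1 listed gene are not reported here.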

Additional observations from a re-analysis of the deposited data

Results flagged for a closer look

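The effect of dwf4 (untreated mutant against untreated wild type) was set against that of bri1-116 (untreated mutant against mock-treated Col-0) for 40 genes, those of largest change in dwf4 and the most abundant called ones. The difference between the mutants passed edgeR's test for 12 of them (30.0%), against 7.71% of all loci, and the genes had been chosen by their dwf4 effect. The bri1-116 effect carries a difference of handling that cannot be told apart from the genotype. Values are log2, the dwf4 effect minus the bri1-116 effect.

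For EARLI1 the difference was -4.09 (adjusted p = 3.49e-05), with effects of -2.41 in dwf4 and 1.68 in bri1-116. Its neighbour AZI1 had a difference of -2.72 (adjusted p = 0.00142), from effects of -1.70 and 1.02. AATP1 differed by -1.88 (adjusted p = 0.00784), from -1.75 and 0.12.

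GSR2, AMT1;3 and COPT2 fell in both mutants and further in dwf4. GSR2 differed by -1.28 (adjusted p = 7.6e-05), AMT1;3 by -1.15 (adjusted p = 0.000195) and COPT2 by -1.51 (adjusted p = 0.00108). GSTF14 also fell in both mutants and differed by -1.64 (adjusted p = 0.0371), with effects of -3.17 and -1.53.

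The proton pump gene HA2 differed by -0.55 (adjusted p = 0.00136), from -0.86 and -0.31, and GAPC2 by -0.58 (adjusted p = 0.00142), from -0.81 and -0.23. BGLU21 rose in both and differed by -0.52 (adjusted p = 0.0192), from 0.61 and 1.13. The remaining differences were positive: BGAL7 at 1.92 (adjusted p = 0.000835), from 2.24 and 0.31, and DR4 at 0.62 (adjusted p = 0.0353), from 0.34 and -0.28.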

How the results depend on the processing

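The count of 2487 loci called in dwf4 was 1617 with DESeq2 (593 higher, 1024 lower) and 3781 in a fit over all 18 libraries (1542 higher). With single libraries left out it ranged from 575 to 2359 (167 to 1003 higher, 408 to 1356 lower), the low end each time without a wild-type library, where the remaining library is assumed to vary like the other groups. The 1572 loci called for the difference between the mutants became 2524 without a low-count filter and 869 to 1826 with single libraries left out. With library totals 52.2% of calls were higher. A replicate block, which the numbers do not warrant as a pairing, gave 2095 calls (795 higher, 1300 lower) and 1404 for the difference. Of 149 named calls none reversed in any alternative. With only the 4 compared libraries fitted, 3 of 148 calls were lost, those of BRI1, GolS4 and DR4. Calls lost were 5 with library totals, 10 with the block, 19 with DESeq2, 6 with all 18 libraries, 92 and 102 without wild-type library 1 and 2, and 25 and 24 without dwf4 library 1 and 2. The overlap of 1757 loci with bri1-116 was 1136 with DESeq2, 2334 with all 18 libraries, and 536 and 454 without a wild-type library. The causes were not tested. The number of libraries, 2 a genotype, limits the precision of every value.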

Other observations

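Runs of at least 4 neighbouring tested genes that changed in one direction were looked up after the values were seen. On chromosome 5 the genes that make thalianol, a root triterpene, stood next to each other and rose together. THAS1, the thalianol synthase gene, stood at 389 and 407 CPM in wild type and 509 and 504 CPM in dwf4 (log2 fold change 0.35 with SE 0.078, adjusted p = 0.0227). The hydroxylase gene CYP708A2 went from 322 and 358 CPM to 483 and 475 CPM (log2 fold change 0.49, SE 0.0871), and the P450 gene CYP705A5 and the acyltransferase-like gene AT5G47980 rose by 0.49 and 1.08. On chromosome 4 a run of CYP705A4, AT4G15390, CYP702A5 and CYP702A6 fell, with CYP705A4 at 19.6 and 19.0 CPM in wild type and 13.4 and 13.0 CPM in dwf4 (log2 fold change -0.55 with SE 0.102, adjusted p = 0.0112).

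Of 9 such runs 3 were higher and 6 lower in dwf4. The other higher runs were AT1G13500 to AT1G13530, of a family of unknown function, on chromosome 1, and Rap2.6L to AT5G13370 on chromosome 5. The longest was a lower run of 5 genes, AT5G45470 to AT5G45510, on chromosome 5, and a further lower run, AT1G51830 to AT1G51860 on chromosome 1, held kinase genes. The remaining lower runs held the P450 genes CYP72A11, CYP72A13, CYP72A14 and CYP72A15 on chromosome 3, and on chromosome 1 the glutathione S-transferase genes GSTU22, GSTU20 and GSTU19 with NCED9, and FRO2, CYP86A4, GPAT4 and PIP1;3. GSTU19 stood at 1840.0 and 1610.0 CPM in wild type and 1115 and 1102 CPM in dwf4 (log2 fold change -0.64 with SE 0.0766, adjusted p = 0.00159). GPAT4, an acyltransferase gene of cutin synthesis, stood at 114 and 108 CPM and 80.4 and 80.0 CPM (log2 fold change -0.46 with SE 0.0609, adjusted p = 0.00236). Of all run members CYP72A11 had the largest share of 36-base windows repeated elsewhere in the genome, 14.9%, and reads that did not align uniquely were not counted. Some run members only just passed edgeR's test, among them AT1G13520 (adjusted p = 0.04998), AT1G13500 (0.0489), NCED9 (0.0482) and CYP72A11 (0.0431). The call of FRO2 ended without either wild-type library, without dwf4 library 1 and in DESeq2. How many runs would stay unbroken with libraries left out is not given here. Whether a run of this length is more than the overall share of calls would give was not tested.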
